A study of Mus musculus with 6 samples.

Results

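The Arp2/3 complex was followed through the mRNAs of its subunits in RNA co-precipitated with Staufen2 from mouse podocytes. The genes were chosen by name, as the 9 subunit genes Actr2, Actr3, Arpc1a, Arpc1b, Arpc2, Arpc3, Arpc4, Arpc5 and Arpc5l, and 7 of the 9 were measured among 19938 named genes. Actr2 and Arpc3 had no listed probe set and were not analysed here. Each gene was read from 1 probe set, the brightest over the 6 arrays where a gene had more than 1. Of the measured subunits, 5 mRNAs were lower in the pulldown than in the input, by 1.12-fold (Arpc5) to 1.52-fold (Arpc5l). Actr3 was 1.10-fold higher, a call that ended after cyclic loess scaling, and Arpc1b did not pass the test. In the same test 17.3% of all genes were lower and 31.3% higher. Among the 12001 genes brighter than the median probe set, the shares were 27.9% and 47.4% when only these were tested.

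The 3 input arrays (input) held total RNA, and the 3 pulldown arrays (stau2) held RNA that came down with Staufen2 when cytoplasmic lysate was treated with its antibody. All 6 samples came from the same immortalized mouse podocyte line, differentiated by a shift from permissive conditions with gamma-interferon to non-permissive conditions without it. No other genotype or agent set the groups apart, and 100 ng of RNA was labelled for each array. Values are log2 expression values made by RMA, and differences are pulldown minus input, so they compare the composition of both RNA pools, whatever the yield of the pulldown. The labels do not name separate cultures, so the p-values rest on a spread between samples that could be technical only. A pulldown with an unrelated antibody was not analysed here. Differences are thus of recovery relative to the input and show no binding to Staufen2 by themselves.

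The arrays of a group correlated at 0.998 to 0.999 over all probe sets and those of different groups at 0.982 to 0.983. Of all genes, 48.7% passed limma's moderated test at a Benjamini-Hochberg adjusted p under 0.05, 31.3% higher in the pulldown and 17.3% lower. The median difference over all genes was 0.04. Of the podocyte markers, the transcription factor Wt1 stood at 9.57 ± 0.043 in the input (SD, n = 3) and Synpo, an actin-associated protein of foot processes, at 8.29 ± 0.067. Below 6.54, the level that divides all probe sets evenly, a value may hold mostly background. The slit diaphragm gene Nphs1 (6.30 in the input), the podocyte phosphatase Ptpro (6.10) and Podxl (6.04) lay below it. The summed log2 level of the 8 measured podocyte markers was 72.5 to 73.0 on the input arrays and 74.5 to 74.7 on the pulldown arrays. Of these markers 5 were higher and 0 lower, and the 5 include Podxl, still below 6.54 in the pulldown (6.35). For the 8 blood and immune markers it was 48.7 to 48.9 and 48.3 to 48.6, with 1 higher and 2 lower. The leukocyte phosphatase Ptprc stood at 5.64 in the input, below the median of all probe sets. Cd14 (7.68) and Cd68 (7.38) lay above that median in the input, and both were lower in the pulldown. Markers of other cell types also lay above it in the input, among them Acta2 (13.57), Pdgfrb (11.45) and the tubular Lrp2 (9.36). Of 7 tubular markers 4 were higher and 0 lower (summed level 47.0 to 47.3 and 48.2 to 48.6), of 6 endothelial markers 2 and 1 (34.6 to 34.8 and 35.0 to 35.2) and of 6 mesangial and fibroblast markers 1 and 1 (50.7 to 50.9 and 50.8 to 51.2). Kdr, Tek and Emcn, the called endothelial markers, lay below 6.54 in both groups, as did the blood and immune marker Laptm5, called higher. The part of the marker shifts in the subunit differences was not tested.

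The Arp2/3 complex nucleates actin. It binds the side of an existing filament and starts a new one as a branch, with the actin-related proteins Arp2 and Arp3 as the first units of the branch. It has little activity on its own and is switched on by nucleation promoting factors of the WASP, WAVE and WASH families. Branched actin drives membrane protrusion and endocytosis, and the actin of podocyte foot processes is known to be rearranged when the filter is injured. Staufen2 binds double-stranded stretches of RNA and is best known from the transport of mRNAs into dendrites. The comparison asked which subunit mRNAs were over- or under-represented in the RNA recovered with it.

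The sequences around the annotated gene starts are given because they are a feature of the genes that the choice of members did not use. RefSeq windows (build GRCm38.p6) of 300 bases, 250 before the start and 50 after, matched 6 of the 7 measured subunits. The 45 bases before the start and the first 15 from it are printed 5′ to 3′ on the gene's strand, so that base 46 is the start, and capitals mark CGGAAGT or its reverse complement ACTTCCG, letters that were looked for after the sequences had been seen.
Actr3, chr1:125435713-125435772, minus strand: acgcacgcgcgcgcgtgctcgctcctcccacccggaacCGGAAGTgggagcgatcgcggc
Arpc2, chr1:74236472-74236531, plus strand: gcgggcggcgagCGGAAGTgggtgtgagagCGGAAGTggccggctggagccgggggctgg
Arpc4, chr6:113378068-113378127, plus strand: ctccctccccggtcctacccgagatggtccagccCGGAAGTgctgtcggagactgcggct
Arpc1a, chr5:145083824-145083883, plus strand: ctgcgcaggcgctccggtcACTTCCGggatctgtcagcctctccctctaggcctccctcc
Arpc1b, chr5:145114211-145114270, plus strand: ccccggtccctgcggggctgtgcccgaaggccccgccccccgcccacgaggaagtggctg
Arpc5, chr1:152766497-152766556, plus strand: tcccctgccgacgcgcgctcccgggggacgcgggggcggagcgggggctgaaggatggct

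The 7 letters occurred on either strand of the whole 300-base window in 4 of these 6 genes, Actr3, Arpc2, Arpc4 and Arpc1a, with 2 copies in Arpc2. They occurred in 6.42% of all 32851 windows. Of the 9461 coding genes that had a window and lay above the median level, 14.6% had the letters in any of their windows. As the letters were looked for after these 6 sequences had been seen, the shares are no test. The 4 genes with the letters are Actr3, which was higher in the pulldown on the deposited values, and 3 that were lower. Over all expressed coding genes, the median difference was 0.05 for the 1381 with the letters and 0.10 for the 8080 without. None of the 6 starts was a C followed by 4 bases that are each C or T, the start typical of mRNAs of the translation machinery, which 2.51% of all windows had. A match of letters is no sign that a factor binds there.

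Actr3 encodes Arp3, the larger actin-related subunit. Its mRNA (probe set 10357332) stood at 11.15, 11.05 and 11.10 on the 3 input arrays and at 11.23, 11.23 and 11.25 on the 3 pulldown arrays. All 3 pulldown values lay above all 3 input values, but the nearest arrays of both groups, at 11.15 and 11.23, lay close. The difference was 0.14 ± 0.032 (SE, 95% interval 0.06 to 0.21), or 1.10-fold higher (limma adjusted p = 0.0095). After cyclic loess scaling, under which 25.7% of all genes were called higher and 22.9% lower, it was 0.03 (adjusted p = 0.44), and the test against a 1.2-fold change did not call it.

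Arpc2 and Arpc4 form the core of the complex and contact the mother filament. Arpc2 (probe set 10347297) stood at 12.68, 12.68 and 12.72 in the input and at 12.49, 12.53 and 12.42 in the pulldown. The groups did not overlap, and the difference was -0.21 ± 0.036 (SE), or 1.16-fold lower (limma adjusted p = 0.0017). Arpc4 (probe set 10540650) stood at 10.89, 11.02 and 10.89 in the input and at 10.47, 10.36 and 10.49 in the pulldown. Its pulldown arrays were lower than every input array, with a difference of -0.49 ± 0.052, or 1.41-fold lower (limma adjusted p = 0.00011). The 95% intervals were -0.30 to -0.13 for Arpc2 and -0.61 to -0.37 for Arpc4.

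Arpc1a and Arpc1b are alternative forms of the propeller subunit that contacts nucleation promoting factors, and Arpc1b is known to be the main form in blood cells. Arpc1a (probe set 10527430) stood at 10.98, 10.99 and 11.05 in the input and at 10.61, 10.53 and 10.66 in the pulldown. The groups lay apart, and the difference was -0.41 ± 0.041 (SE), or 1.33-fold lower (limma adjusted p = 8.0e-05). Arpc1b stood at 12.36, 12.44 and 12.23 in the input and at 12.09, 12.00 and 12.33 in the pulldown. Its groups overlapped through pulldown array 3, which was above input array 3. The difference of -0.20 ± 0.091 did not pass (adjusted p = 0.11), with a 95% interval of -0.42 to 0.01. Leaving out each array in turn gave -0.13 (adjusted p = 0.31, without pulldown array 2) to -0.30 (adjusted p = 0.014, without pulldown array 3), and it passed only in the last case.

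Arpc1b was the only measured subunit with more than 1 probe set of its own. The dimmer one (10604763) stood at 12.22, 12.20 and 12.20 in the input and at 11.82, 11.78 and 11.99 in the pulldown. These groups did not overlap, and with this probe set in place of the brighter one (10527441) the difference was -0.34 ± 0.054 (limma adjusted p = 0.0011). The probe sets of Arpc1b thus gave the same direction and different calls.

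Arpc5 and Arpc5l are alternative forms of the smallest subunit. Arpc5 (probe set 10350684) stood at 12.39, 12.37 and 12.40 in the input and at 12.25, 12.17 and 12.25 in the pulldown. The groups did not overlap, and the difference was -0.16 ± 0.031 (SE), or 1.12-fold lower (limma adjusted p = 0.0035). Arpc5l (probe set 10471904) stood at 8.11, 8.06 and 8.15 in the input and at 7.56, 7.36 and 7.58 in the pulldown. It had the most negative difference of the 7 subunits, at -0.61 ± 0.062, or 1.52-fold lower (limma adjusted p = 9.2e-05, 95% interval -0.75 to -0.46). Levels of different probe sets are not on one scale, so the lower values of Arpc5l are no measure of its amount relative to Arpc5.

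**Figure D1:**
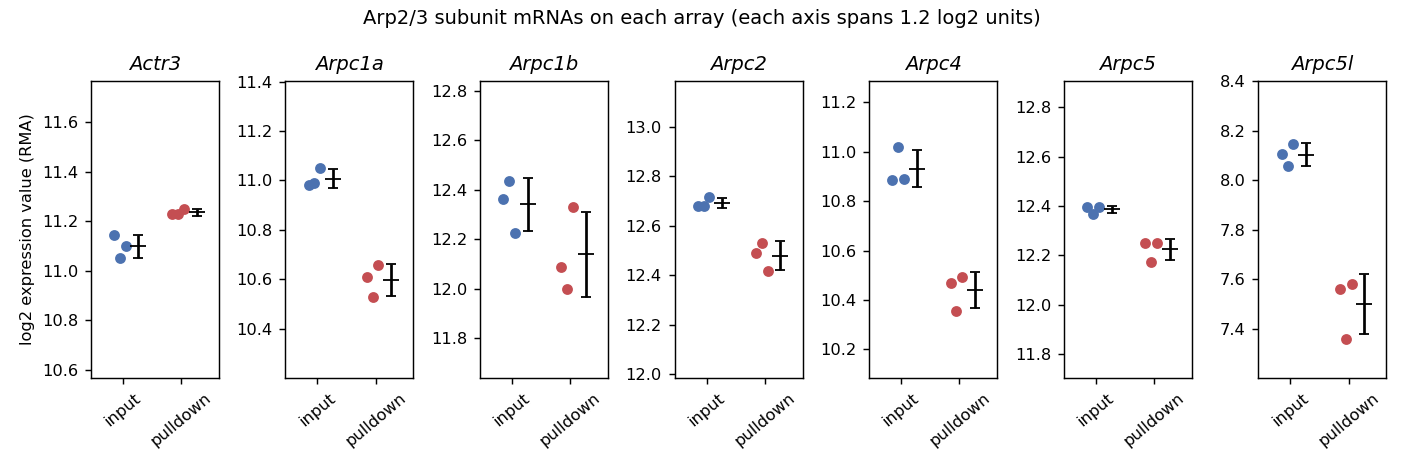
Log2 expression value (vertical axis) of the 7 measured Arp2/3 subunits on each of the 3 input arrays (blue) and 3 pulldown arrays (red), with the mean and SD in black; every panel spans the same 1.2 log2 units. The groups lie apart in every panel but that of Arpc1b, where pulldown array 3 (12.33) lies among the input values.

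In all, 6 of the 7 measured subunits passed the test, 5 lower and 1 higher. The shares over all genes were 17.3% lower and 31.3% higher. Among the 12001 genes above the median of all probe sets, to which all 7 subunits belong, they were 27.9% lower and 47.4% higher when only these were tested. The groups did not overlap for 6 of the 7 subunits, 5 lower and 1 higher, against 55.9% of all genes (19.6% lower and 36.4% higher). The median difference of the 7 subunits was -0.21, beside 0.04 over all genes. The mean log2 value of the 7 subunits was 11.22, 11.23 and 11.22 on the input arrays and 10.96, 10.88 and 11.00 on the pulldown arrays. Pulldown array 2 was the lowest pulldown array for 6 of the 7 subunits, and Arpc2 was the exception.

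**Figure D2:**
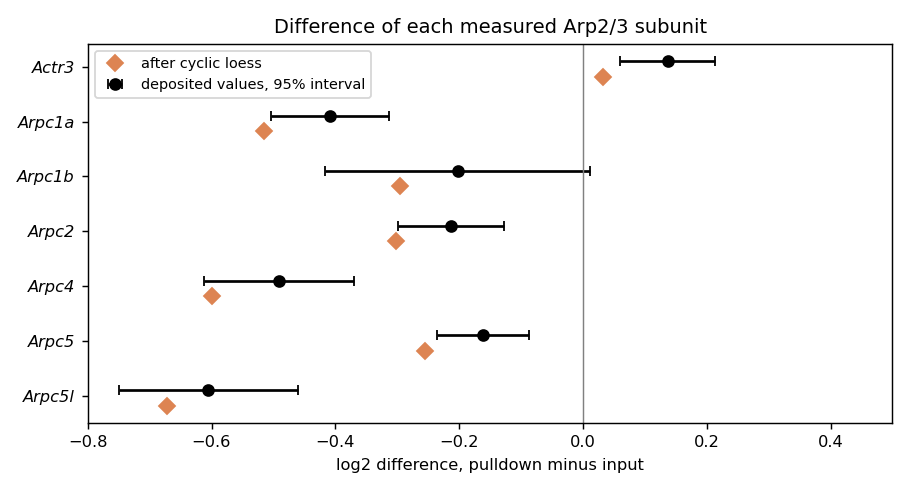
Log2 difference, pulldown minus input (horizontal axis), of each measured subunit: black points with bars are the deposited values with their 95% intervals, and orange diamonds the differences after cyclic loess scaling. Actr3 is the only subunit above 0 (0.14, and 0.03 after loess), and the others run from -0.16 (Arpc5) to -0.61 (Arpc5l).

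Whether subunits differed from each other was tested on the difference of their log2 values within each array, for all 21 pairs. An exact permutation test of 3 against 3 arrays (2-sided) cannot give a p below 0.10, and 16 pairs reached that value (adjusted p = 0.13 over the 21 pairs), so no pair can pass at 0.05. All 6 pairs with Actr3 were among them. Between the propeller forms, Arpc1b minus Arpc1a was 1.38, 1.45 and 1.17 on the input arrays and 1.48, 1.47 and 1.68 on the pulldown arrays. This pair shifted by 0.21 without overlap (exact p = 0.10), but by 0.07 (exact p = 0.30) with the dimmer probe set of Arpc1b. Without input array 3 the shift was 0.13 and without pulldown array 3 it was 0.14.

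Between the small subunits, Arpc5l minus Arpc5 was -4.29, -4.31 and -4.25 on the input arrays and -4.69, -4.82 and -4.67 on the pulldown arrays. The shift of -0.44 was larger than the spread of either group (SD 0.033 and 0.080) and again gave the smallest possible exact p of 0.10. The values of Arpc5l minus Arpc4 overlapped between the groups (shift -0.11, exact p = 0.30), as did those of Arpc4 minus Arpc1a (-0.08, exact p = 0.30). Arpc2 and Arpc5, the 2 called subunits with the least negative differences, also overlapped, with a shift of 0.05 for Arpc5 minus Arpc2 (exact p = 0.50).

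The subunits were then set beside other genes of like genomic span, which includes introns and is a coarse measure of RNA size. Over 11630 coding genes above the median level the difference followed span with a Spearman correlation of 0.48. Over the 7 subunits it was 0.54, a description of 7 genes with no test. Actr3 (42.8 kb) and Arpc2 (31.7 kb) have the longest spans of the 7, and Arpc5 (9.04 kb) and Arpc5l (7.81 kb) the shortest.

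Each of the 7 subunits lay below the median of its span class. In the class of 30 to 100 kb (3340 genes, median 0.27), 37.6% of genes had a lower difference than Actr3 and 9.82% a lower one than Arpc2. In the class of 10 to 30 kb (3858 genes, median 0.05) the shares were 24.8% for Arpc1b, 14.6% for Arpc1a and 11.6% for Arpc4. In the class of 3 to 10 kb (2223 genes, median -0.09) they were 44.0% for Arpc5 and 19.3% for Arpc5l. Arpc2 and Actr3 thus differed by 0.35 (exact p = 0.10 for the pair) within one class, and Arpc5 and Arpc5l by 0.44 within another.

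**Figure D3:**
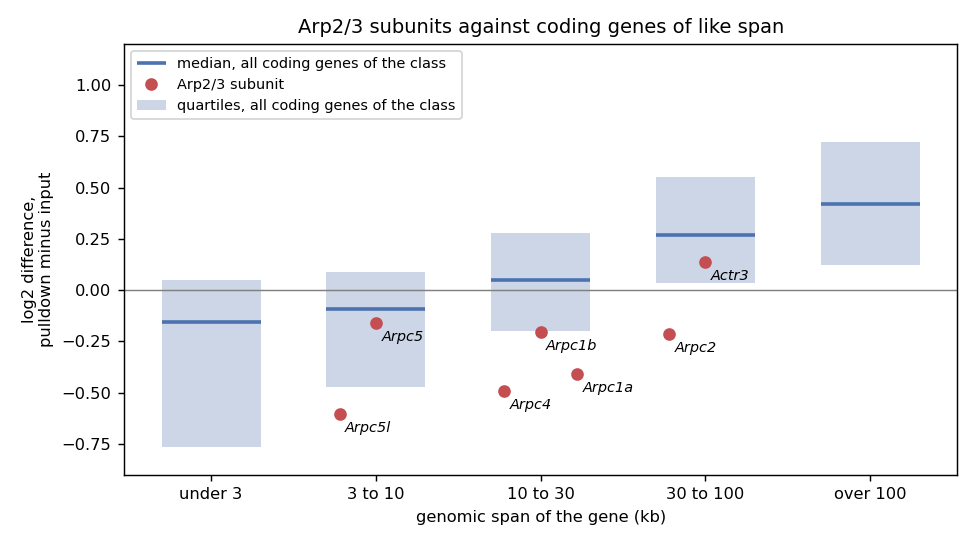
Log2 difference, pulldown minus input (vertical axis), by class of genomic span in kb (horizontal axis): bars run from the lower to the upper quartile of all coding genes above the median level, blue lines are their medians, and red points the Arp2/3 subunits. All 7 subunits lie below the median of their class, with Actr3 at 0.14 against a median of 0.27.

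The genes around branched actin went in both directions, on the deposited values in shares near those of all genes above the median level. Of the 83 measured genes of 5 lists, 37 were higher and 20 lower (44.6% and 24.1%, median 0.07), beside 31.3% and 17.3% of all genes. After cyclic loess 27 were higher and 31 lower (32.5% and 37.3%, median 0.01), beside 25.7% and 22.9% of all genes. When only genes brighter than the median probe set were tested, 36 of 76 were higher and 21 lower (47.4% and 27.6%). Of all 12001 genes tested so, 47.4% were higher and 27.9% lower. Nucleation promoting factors bring an actin monomer to the complex and activate it. Their list here also holds the other members of the WAVE and WASH complexes. Of its 19 measured genes 10 were higher, 3 lower and 6 not past the test (median 0.13). When only genes above the median level were tested, 16 of them were kept, with 10 higher and 3 lower (62.5% and 18.8%). Brk1, the small subunit of the WAVE complex, stood at 12.61, 12.62 and 12.60 in the input and at 11.74, 11.72 and 11.75 in the pulldown, a difference of -0.87 ± 0.026 (SE, limma adjusted p = 3.2e-07). Of the 10 measured members of the WAVE complex, 5 were higher, 1 (Brk1) lower and 4 not past the test. Abi2 was higher by 0.64 ± 0.039 and Cyfip2 by 0.62 ± 0.031, while Abi1 (0.06, adjusted p = 0.11) and Wasf1 (-0.08, adjusted p = 0.14) did not pass. Jmy, a p53 cofactor that also nucleates actin, was higher by 0.85 ± 0.057, and Wasl (N-WASP), the activator in endocytosis and filopodia, by 0.38 ± 0.057.

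Members of the WASH complex, which activates Arp2/3 on endosomes, were picked out after their values were seen. Washc3 (-0.60) and Washc1 (-0.31) were lower, while Washc4 (0.60), Washc2 (0.58) and Washc5 (0.26) were higher. The WAVE and WASH complexes each held members called in either direction. The Arp2/3 complex did so on the deposited values, but after cyclic loess none of its members was called higher. Of all genes above the median level, 47.4% were called higher and 27.9% lower when only these were tested. Calls in both directions are thus not particular to these complexes.

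Factors that stabilise, inhibit or remove branches gave 9 higher, 3 lower and 3 not past the test of 15 measured (median 0.16). When only genes above the median level were tested, 13 of them were kept, with 8 higher and 4 lower. These are 61.5% and 30.8%, beside 47.4% and 27.9% of all genes tested so. Cttn (cortactin), which stabilises branches, stood at 11.66, 11.62 and 11.64 in the input and at 12.11, 11.99 and 12.12 in the pulldown, higher by 0.44 ± 0.040 (SE, limma adjusted p = 5.4e-05). Gmfb, which removes branches, was higher by 0.57 ± 0.034. Arpin, an inhibitor of the complex, stood at 10.96, 10.81 and 10.87 in the input and at 10.46, 10.29 and 10.53 in the pulldown, lower at -0.45 ± 0.066 (limma adjusted p = 0.00074).

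Coronins bind filaments and the complex, and of 7 measured 4 were higher, 1 lower and 2 (Coro1a and Coro6) not past the test. Over all genes 31.3% were higher and 17.3% lower, and over genes above the median level 47.4% and 27.9%. Coro2a was higher by 1.11 ± 0.050 (SE), Coro2b by 0.62 ± 0.051 and Coro1c by 0.24 ± 0.027. Coro7 (named after its value was seen) was higher by 0.49 ± 0.037, while Coro1b was lower at -0.35 ± 0.034. Cttnbp2nl, a cortactin-binding protein relative, was higher by 0.53 ± 0.027. The adjusted p-values of these 6 genes by limma ran from 1.3e-06 to 0.00016.

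Upstream GTPases and adaptors gave 10 higher, 5 lower and 4 not past of 19 (median 0.14). All 19 lay above the median level, and 11 higher and 5 lower (57.9% and 26.3%, beside 47.4% and 27.9%) were called when only such genes were tested. The adaptors Dnmbp (Tuba), an exchange factor for Cdc42, and Fnbp1, a membrane-bending protein that binds N-WASP, were higher by 0.78 ± 0.037 (SE) and 0.65 ± 0.031. The GTPases Rac3 (-0.85 ± 0.087) and Rhog (-0.54 ± 0.047) were lower. After cyclic loess this list had 6 members higher and 6 lower (31.6% each, beside 25.7% and 22.9% of all genes) and a median of 0.05.

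Genes of barbed end capping and monomer supply, which keep branches short and feed them, gave 6 higher and 6 lower of 19 (median -0.03). These are 31.6% each, beside 31.3% higher and 17.3% lower of all genes. When only genes above the median level were tested, 18 were kept, with 5 higher and 6 lower. These are 27.8% and 33.3%, beside 47.4% and 27.9% of all genes tested so. The capping protein Capg stood at 11.04, 11.04 and 11.00 in the input and at 9.84, 9.59 and 9.79 in the pulldown, 2.44-fold lower, the largest fold in any of the lists. Carmil1, which takes capping protein off filament ends, was higher by 0.59 ± 0.040 (SE), as were Cd2ap, a podocyte adaptor that binds capping protein (0.43 ± 0.050), and Cap2 (0.40 ± 0.047), a monomer-binding protein. After cyclic loess 4 members of this list were higher and 11 lower (median -0.12). These are 21.1% and 57.9%, beside 25.7% and 22.9% of all genes.

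Actins and other actin-related proteins gave 2 higher, 3 lower and 6 not past of 11 (median -0.03). These are 18.2% higher and 27.3% lower, beside 31.3% and 17.3% of all genes. After cyclic loess 1 was higher and 6 lower (median -0.10), or 9.09% and 54.5%, beside 25.7% and 22.9% of all genes. When only genes above the median level were tested, 10 were kept, with 2 higher and 3 lower (20% and 30%, beside 47.4% and 27.9%). With any one array left out except pulldown array 2, 1 member was higher. Actl6a, an actin-related protein of chromatin remodelling complexes, was lower at -0.33 ± 0.043 (SE), whereas the muscle actin Acta1 was higher by 0.86 ± 0.075. Actg2 (-0.29 ± 0.027) and Actc1 (-0.20 ± 0.035) were lower. Actin genes have near-identical copies, so probes may share signal between them and single members are uncertain.

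**Figure D4:**
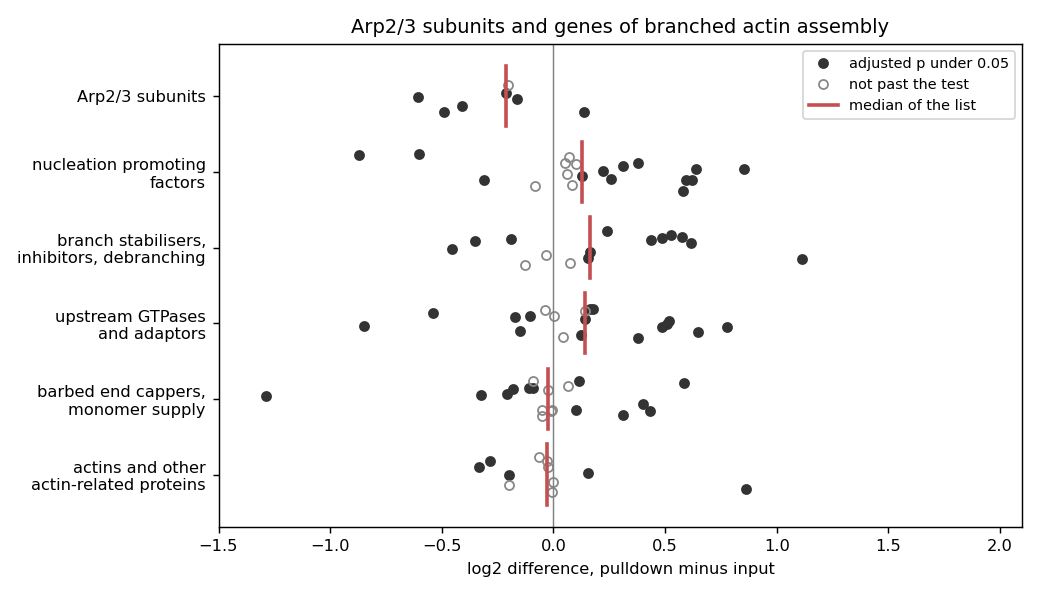
Log2 difference, pulldown minus input (horizontal axis), of the Arp2/3 subunits and of 5 lists of genes around branched actin (rows, with points spread vertically for legibility): filled points passed limma's test at an adjusted p under 0.05, open points did not, and red lines are list medians. The subunit median is -0.21 and the list medians run from -0.03 to 0.16.

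By likeness of the gene-centred values over the 6 arrays, among 11598 other genes above the median level, the genes nearest to Actr3 were Orc2, Hadha and Mapkapk3, with root mean square differences of 0.013, 0.014 and 0.014. Those nearest to Arpc5l were Maf1 (0.013), Tmem218 (0.023) and Thoc6 (0.025). Their differences between pulldown and input were 0.13 to 0.15 for the first 3 and -0.60 to -0.65 for the others. The values used to pick these genes hold those differences, so the match follows from the choice. Stau2, the mRNA of the precipitated protein, did not pass on the deposited values, at -0.02 ± 0.027 (SE, limma adjusted p = 0.52). After cyclic loess it was lower at -0.13, with an adjusted p of 0.0052 by limma.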

How the data were processed

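Per the labels, RNA from input and pulldown was amplified by a whole-transcript method with a biotin label. The authors deposited log2 expression values with a column for each array. RMA and limma are named per the submitters' processing notes, with no version, genome build or annotation (not given in the sources used here). As usually run, RMA includes quantile normalization, which makes arrays alike in distribution, so that a difference is relative to the bulk of the RNA. Array medians were 6.53 to 6.54. Of 35556 probe sets, 21789 had 1 gene symbol in the platform annotation, 1621 several and 12146 none. Only the first were named, with symbols updated through Entrez identifiers.

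All 19938 genes were fitted with limma 3.58.1 in R 4.3.3 (moderated variances, 2-sided, no covariates), with Benjamini-Hochberg adjustment over all genes and a threshold of 0.05. Pairs of subunits were compared with exact permutation tests (scipy 1.17.1). On simulated data for this comparison (19938 genes), 84.8% of genes moved by 0.25 and all moved by 0.5 or 1 were called, with 8 false calls among 198. Only 66 or 67 genes were moved by each size, with independent normal noise, whereas 48.7% of genes passed in the data. These rates therefore do not give the power or the false calls of the real comparison.

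The members and lists were chosen with earlier results of these data known. All 9 subunits were to be named, and of each list the 4 members with the largest absolute difference among those called and above the median level, with Wasl, Cttn, Arpin, Gmfb, Coro1b, Coro1c, Actr3b and Stau2 in any case. Actr3b had no listed probe set. Alternatives were the replicate block, an intensity trend, the unmoderated statistic, a test against a 1.2-fold change (treat), centring on bright probe sets (above the 75th percentile), leaving out dim genes, cyclic loess, other probe set rules, array weights and leaving out each array. Arrays have no read depth, and their number limits the precision.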

Additional observations from a re-analysis of the deposited data

How the results depend on the processing

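The signs of the 7 subunit differences and of the shifts of Arpc1b minus Arpc1a and Arpc5l minus Arpc5 did not change under any alternative run. The calls of Arpc1a, Arpc4 and Arpc5l held under all of them, and those of Arpc2 and Arpc5 under all but the test against a 1.2-fold change. The test against a 1.2-fold change left 0 subunits higher and 3 lower, 21 partner genes higher and 6 lower, and 3034 of all genes higher and 1822 lower, since it asks for a larger difference. Cyclic loess left 0 subunits higher and 6 lower, and 31 partner genes lower and 27 higher, and moved the subunit median to -0.30; the cause was not tested. Under it 25.7% of all genes were higher and 22.9% lower, and the share of higher among all calls went from 64.4% to 52.9%. The subunit median was -0.27 with each gene's probe sets averaged and -0.34 with the second brightest probe set, which change Arpc1b alone among the subunits. Leaving out each array in turn gave medians of -0.30 to -0.22 (-0.30 without pulldown array 3, -0.26 without input array 3) and 5 to 6 subunits lower. It gave 0.13 (without input array 3) to 0.26 for Arpc1b minus Arpc1a. Arpc1b passed after cyclic loess (adjusted p = 0.023), with the mean of its probe sets (0.013), with its dimmer probe set (0.0011) and without pulldown array 3 (0.014).

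Input and pulldown arrays share replicate numbers 1 to 3. Their deviations from the group means correlated at 0.02, 0.11 and -0.06 for equal numbers, and not every array correlated best with its own number, so the numbers were taken as names. With the replicate block 9714 genes passed in place of 9705, and the subunits stayed at 1 higher and 5 lower. Actr3 minus Actr2 and the planned comparison by protein length were not run, because Actr2 had no listed probe set and no protein table was used here. Genomic span was used in its place.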
